A study of Mus musculus with 4 samples.

Results

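Microglia, the resident macrophages of the brain, carry a set of genes in the healthy adult tissue that other macrophages express little or not at all. The 9 genes described here were chosen by name and belong to that homeostatic set: P2ry12, Tmem119, Sall1, Olfml3, Sparc, Gpr34, Siglech, Fcrls and Cx3cr1. All 9 of 9 were found by symbol among the 30406 genes that the 4 libraries share. They were read in 2837 cells gated as microglia and 11964 cells gated as macrophages, of 24433 cells kept in all.

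RNA was sequenced cell by cell in live CD45.2+ immune cells sorted from brains of mice implanted with Gl261, a mouse glioma line. There was 1 library for each of 4 groups: WT and IFNaR-/- mice (KO, without the receptor for type I interferons), both sorted on day 20 without treatment, and WT and KO mice given an antibody against the T cell checkpoint receptor PD-1 (anti-PD1, 200 ug per mouse on days 7, 11, 15 and 19) and sorted on day 25. All 4 groups carried the tumour, so no library came from a healthy brain. The suspensions were pooled before the sort from a number of mice that is not given. The protocol in the labels states that CD3+ and CD3- cells were mixed 1:1 in the anti-PD1 groups. Gated T cells made up 3.96% (WT) and 5.86% (KO) of kept cells in these groups, and 19.8% and 16.6% in the untreated ones. The gated shares thus do not show a 1:1 mix. Strain, age and the part of the receptor gene that was deleted are not given in the sources used here.

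Each group is 1 library, so replicate error is unknown and no test was made. Levels are CPM, the UMIs (unique molecules) of a gene per 1000000 UMIs of the cell class in that library, and each value in parentheses is a 95% exact interval that covers counting error only. Differences between libraries also carry the spread between pools and runs, which these data do not measure. Where 4 values stand in a row, they are those of untreated WT, untreated KO, anti-PD1 WT and anti-PD1 KO, in that order.

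The homeostatic set is held in place by signals from the brain, in particular by TGF-beta and by ligands of the receptor CSF1R, and by transcription factors that act on them. In injury, ageing and tumours microglia are known to lower parts of the set and to raise genes of lipid handling and phagocytosis, a pattern called disease-associated. Monocytes that enter the brain become macrophages that resemble microglia in many genes, but they take on the homeostatic genes poorly. The 9 genes cover several roles. Sall1 is a zinc finger transcription factor needed for microglial identity. P2ry12 is a receptor for ADP that directs microglial processes to injury, Cx3cr1 is the receptor for the neuronal chemokine fractalkine, and Gpr34 is a receptor for lysophosphatidylserine. Siglech is a lectin-like receptor, also known from plasmacytoid dendritic cells, and Fcrls is an Fc receptor-like surface protein. Tmem119 is a membrane protein used as a microglial marker, while Olfml3 and Sparc are secreted proteins, the latter a component of the extracellular matrix.

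On GRCm38, Sall1 lies on chromosome 8 (89027235 to 89044162, minus strand). The receptors lie on chromosome 3 (P2ry12, 59216272 to 59262871, and Fcrls, 87250758 to 87263738, both minus strand), chromosome X (Gpr34, 13632089 to 13640858, plus strand), chromosome 7 (Siglech, 55768178 to 55778925, plus strand) and chromosome 9 (Cx3cr1, 119901616 to 120069879, minus strand). Tmem119 is on chromosome 5 (113793729 to 113800516), Olfml3 on chromosome 3 (103722222 to 103738001) and Sparc on chromosome 11 (55394500 to 55423183), all on the minus strand. P2ry12 lies inside Med12l and Gpr34 inside Cask, in both cases on the opposite strand. The annotated span of Cx3cr1 also covers Gorasp1, Csrnp1 and Xirp1, which are on the same strand as Cx3cr1, so reads in the shared stretches could not be told apart by position.

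Promoter windows of 300 bases were available from RefSeq (GRCm38.p6) for 7 of the 9 genes, as 9 windows. The first 280 bases of 2 of them are printed here, 250 before the annotated start and 30 after it, because Fcrls and Olfml3 are the members that differed between the genotypes in opposite directions in both pairs of libraries. They are given 5′ to 3′ on the strand of the gene, which is the minus strand of chr3:87263495-87263774 for Fcrls and of chr3:103737972-103738251 for Olfml3, and capitals mark the letters GAGGAA, the core recognised by the myeloid factor PU.1, which the Olfml3 stretch does not hold.
Fcrls: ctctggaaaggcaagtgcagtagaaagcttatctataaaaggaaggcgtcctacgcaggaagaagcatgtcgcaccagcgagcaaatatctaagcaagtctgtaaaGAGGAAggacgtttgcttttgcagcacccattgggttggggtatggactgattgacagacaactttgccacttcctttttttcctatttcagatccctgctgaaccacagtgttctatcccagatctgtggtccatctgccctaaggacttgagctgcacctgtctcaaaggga
Olfml3: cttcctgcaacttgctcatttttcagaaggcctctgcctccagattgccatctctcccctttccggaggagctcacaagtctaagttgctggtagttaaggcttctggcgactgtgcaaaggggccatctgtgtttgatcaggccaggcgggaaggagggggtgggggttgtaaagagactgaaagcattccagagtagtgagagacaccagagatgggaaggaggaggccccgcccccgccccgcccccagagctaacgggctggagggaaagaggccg
GAGGAA, searched on both strands, was found in 2 of the 9 windows, those of Fcrls and Siglech, and 28.3% of the 32851 windows of the table hold it.

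Microglia were gated without the 9 genes, on 10 other microglial anchor genes (Crybb1, Slc2a5, Adgrg1, Ecscr, Rtn4rl1, Gal3st4, Upk1b, Bhlhe41, Nav3 and Sall3), and macrophages on 12 genes of monocyte-derived cells with at most 1 anchor UMI. The gate held 344, 223, 846 and 1424 microglia. Macrophages numbered 1846, 981, 5747 and 3390. Median depth was 6549.5 to 11067 UMIs per microglial cell and 5567.5 to 10430 per macrophage. The 12 monocyte-derived genes summed to 148 to 194 CPM in microglia and to 4008 to 8326 CPM in macrophages. Both gates use these 12 genes, with an upper limit for microglia and a lower limit for macrophages. The gap is therefore set by the gates and is no separate check of purity. Single genes of that list differed between the genotypes inside the microglial gate. Ly6c2 was at 13.5 and 7.60 CPM in WT microglia (untreated, then anti-PD1) and at 0 in KO, Plac8 at 75.1 and 21.4 CPM in WT and 3.54 and 0.746 CPM in KO, and Fn1 at 6.77 and 50.8 CPM in WT and 45.1 and 26.1 CPM in KO. Genes of border-associated macrophages, which live in the meninges and around vessels, summed to 11.5 and 11.7 CPM in WT microglia and to 93.3 and 99.6 CPM in KO microglia, with 5 to 7 of the 7 genes detected. Lyve1 was at 0 in the microglia of both KO libraries and Cd163 in those of both untreated libraries, while Mrc1, the mannose receptor, was higher in KO microglia by 4.06 and 3.74 on the log2 scale. The part of monocyte-derived and border-associated cells in the genotype values given further on was not tested. Ifnar1, one of the receptor's subunits, was read in microglia of every library, at 83.6 and 49.1 CPM in WT and 111 and 151 CPM in KO (untreated, then anti-PD1), so its RNA does not check the genotype labels.

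All 9 genes were higher in microglia than in macrophages in each of the 4 libraries. The median of the 9 log2 ratios was 6.32, 5.98, 4.90 and 4.50, which are 79.7-, 63.0-, 29.8- and 22.7-fold. Over all genes with at least 50 UMIs the medians were 0.18, 0.09, 0.06 and 0.20. All 9 were at least 2-fold higher, as were 18.4%, 14.2%, 13.4% and 16.6% of all genes. None was lower, as 12%, 11.6%, 11.7% and 9.84% of all genes were by at least 2-fold. Another 213, 126, 944 and 1633 myeloid cells met neither gate, at a median depth of 1693.5 to 3953 UMIs. Each member stood in them between its levels in microglia and macrophages in every library, with Sparc at 136, 371, 56.3 and 182 CPM. These cells are in neither class, and the part of their exclusion in the size of the gap was not tested.

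**Figure D1:**
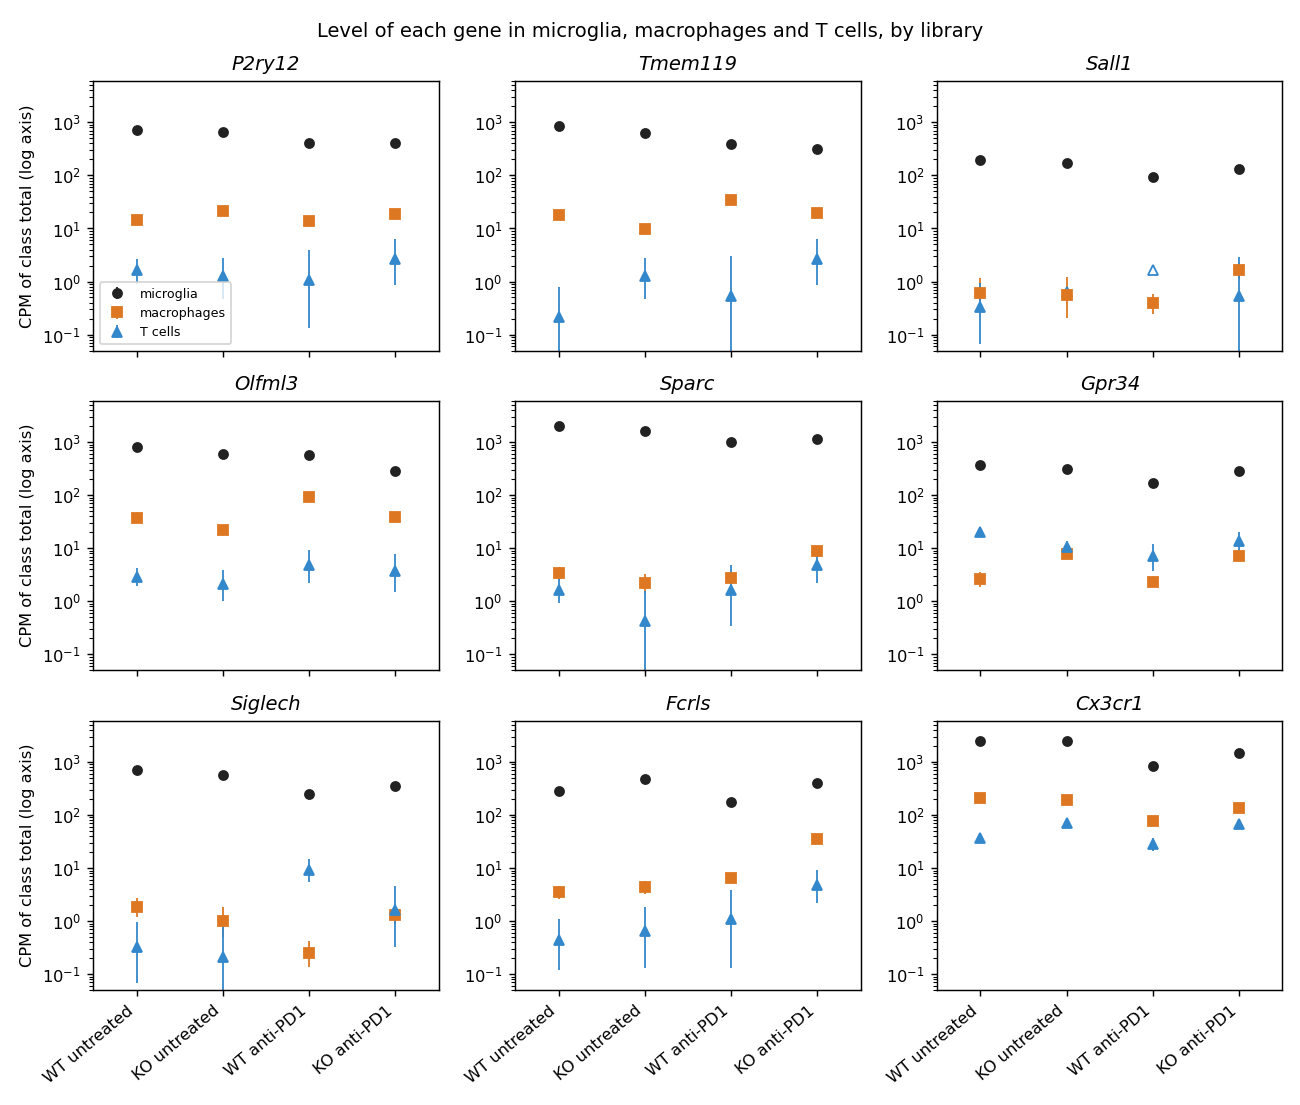
Level of each of the 9 genes (CPM of the class total, log axis) in gated microglia (black circles), macrophages (orange squares) and T cells (blue triangles) of each library; bars are 95% Poisson intervals and open symbols stand for 0 UMIs, drawn at the level of 3 UMIs. Microglia are the highest of the 3 classes in every panel and library.

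Sall1 was close to absent in macrophages and T cells. In microglia it stood at 195 CPM (179 to 211), 173 (156 to 191), 91.9 (86.3 to 97.7) and 130 (123 to 137). Macrophages gave 9, 6, 22 and 36 UMIs in all, that is 0.32% to 1.25% of the microglial level.

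Siglech had the lowest macrophage level relative to microglia of the 9 genes in both anti-PD1 libraries, and Sparc in both untreated ones. Siglech was also high in another cell type. In microglia Siglech stood at 704 CPM (674 to 735), 572 (542 to 604), 248 (239 to 258) and 350 (339 to 362). Its level in macrophages was 0.0999% to 0.373% of that. Plasmacytoid dendritic cells of the untreated libraries carried more of it than microglia, with 2009 CPM (1913 to 2109) in WT and 3020 (2883 to 3160) in KO. After anti-PD1 under 50 such cells were found, and no level is given. T cells of anti-PD1 WT had 17 Siglech UMIs, all in 0.578% of the cells, which was 2 cells.

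P2ry12 stood at 721 CPM (691 to 753), 650 (617 to 684), 416.5 (404 to 429) and 417 (405 to 429) in microglia. Macrophages had 14.4, 21.6, 13.99 and 18.4 CPM of P2ry12 and T cells 1.09 to 2.66 CPM, so the macrophage level lay above that of T cells in every library. Cx3cr1, which monocytes also express, showed the narrowest gap of the receptors in all 4 libraries: 2539 CPM (2482 to 2597), 2519 (2454 to 2585), 836 (819 to 853) and 1504 (1481 to 1527) in microglia against 206, 192, 76.7 and 135 CPM in macrophages. T cells had 28.3 to 70.1 CPM of Cx3cr1.

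Gpr34 was the only receptor of the set with a higher level in T cells than in macrophages in every library. Its microglial level was 372 CPM (350 to 395), 307 (285 to 331), 173 (166 to 181) and 281 (271 to 291). T cells carried more Gpr34 than macrophages in all 4 libraries, with 20.3, 10.5, 7.08 and 13.8 CPM against 2.67, 7.94, 2.35 and 7.29 CPM. In untreated KO the intervals of T cells (7.77 to 13.9) and macrophages (6.35 to 9.81) overlapped. NK cells of the untreated libraries stood at 21.4 and 24.4 CPM. The macrophage level of Gpr34 was thus no higher than that of T cells in any library. Siglech had the same order after anti-PD1 only, on few T cell UMIs. T cells held 9.26 CPM of it against 0.248 in macrophages in WT (17 T cell UMIs), and 1.59 against 1.31 in KO (3 T cell UMIs).

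Fcrls was the receptor whose macrophage level differed most between libraries. Microglia held 286 CPM (267 to 306), 486 (457 to 515), 176 (169 to 185) and 398.5 (387 to 411). Macrophages held 3.56, 4.34, 6.55 and 35.1 CPM, or 1.24%, 0.894%, 3.71% and 8.81% of the microglial level. The highest microglial and the highest macrophage level of Fcrls thus came from different KO libraries.

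Tmem119 and Olfml3 were read in macrophages at a larger share of their microglial level after anti-PD1 than without treatment. The same held for the other members in both genotypes, except Siglech in WT (0.262% untreated and 0.0999% after anti-PD1). For P2ry12 the share went from 1.99% to 3.36% in WT and from 3.33% to 4.41% in KO. The microglial CPM of every member was itself lower after anti-PD1. Tmem119 stood in microglia at 857 CPM (824 to 891), 631 (599 to 665), 398 (387 to 410) and 311 (301 to 322), and in macrophages at 17.9, 9.97, 34.4 and 19.6 CPM. Olfml3 stood in microglia at 819 CPM (787 to 853), 588 (557 to 621), 583 (569 to 598) and 283 (273 to 293), and in macrophages at 36.9, 22.5, 91.0 and 38.2 CPM. In macrophages both genes were highest in anti-PD1 WT, where Olfml3 reached 15.6% and Tmem119 8.63% of the microglial level. T cells of that library held 4.90 CPM of Olfml3 and 0.545 CPM of Tmem119. Sparc, the other secreted protein, was at 1973 CPM (1923 to 2024), 1646 (1593 to 1700), 1001 (982 to 1020) and 1143 (1123 to 1163) in microglia and at 2.22 to 8.73 CPM in macrophages.

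**Figure D2:**
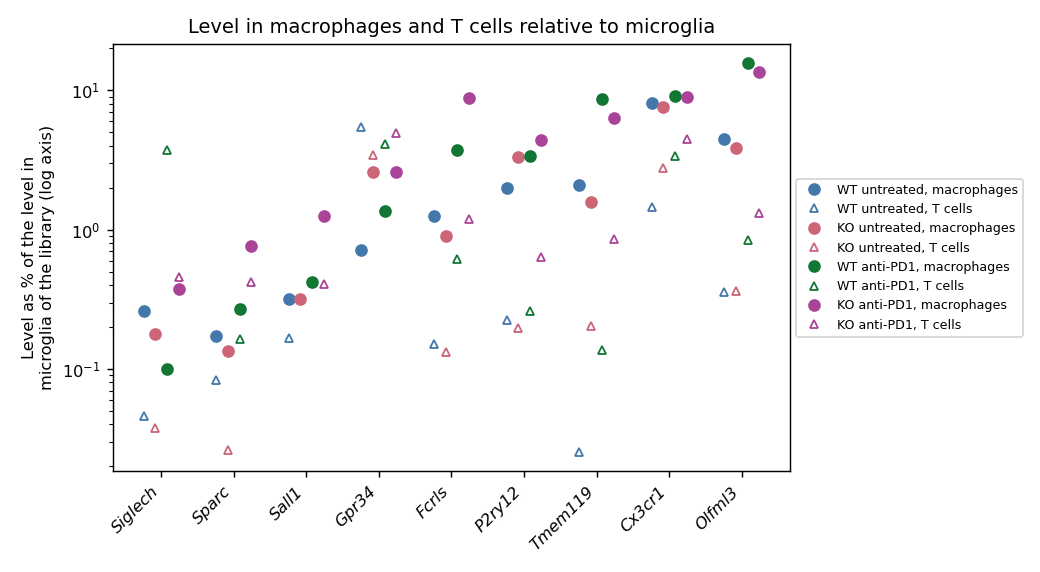
Level of each gene in macrophages (filled circles) and T cells (open triangles) as a percentage of its level in microglia of the same library, on a log axis, with genes ordered by their median in macrophages; points at 0 are not drawn. Macrophages range from 0.0999% for Siglech to 15.6% for Olfml3, both in anti-PD1 WT, and T cells lie above macrophages for Gpr34 in every library.

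Within macrophages, cells of monocyte type and cells with complement genes were set apart by Ly6c2, a monocyte surface gene, and C1qa, a complement gene of tissue macrophages. Macrophages with at least 2 Ly6c2 UMIs numbered 1311, 126, 3479 and 59, and those with 0 Ly6c2 UMIs and at least 3 of C1qa numbered 162, 475, 1236 and 2482. Fcrls was lower in the Ly6c2 cells of both anti-PD1 libraries. Its log2 ratio was -0.62 (-0.96 to -0.28) in WT and -1.10 (-2.40 to -0.20) in KO, there on 8 UMIs in the Ly6c2 cells. In the untreated libraries it fell short of the 50 UMIs set for a ratio, with 28 and 20 UMIs in WT and 1 and 39 in KO (Ly6c2 cells, then C1qa cells). Olfml3 was also lower, at -1.10, -0.68, -0.27 and -0.62, and the last interval (-1.64 to 0.14) held 0. Tmem119 was at -0.76, -0.39, -0.19 and 0.44, with intervals that held 0 in both KO libraries. Cx3cr1 did not keep 1 direction, at 0.23 (0.06 to 0.41), 0.11 (-0.07 to 0.27), -0.30 (-0.40 to -0.20) and -0.35 (-0.80 to 0.03). In anti-PD1 WT it was lower in the Ly6c2 cells by about as much as Olfml3. The mix of these macrophages differed between the libraries, and its part in the differences between libraries was not tested.

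Per cell, the set was read in nearly all gated microglia of the untreated libraries. Cells were thinned to 1000 UMIs so that depth was equal, which left out 2, 0, 1 and 7 microglia. A median of 4 of the 9 genes was then detected in microglia of untreated WT and of untreated KO, and 3 after anti-PD1 in WT and in KO. At least 5 of the genes were detected in 47.1% and 40.4% of untreated and in 22.6% and 29.2% of anti-PD1 microglia (WT, then KO). None of the 9 was detected in 2.34%, 0.897%, 12.2% and 5.86% of microglia. The corresponding share was 80.9% to 84.6% of macrophages and 92.2% to 95.4% of T cells. T cells serve as the background here, but for Gpr34 and Cx3cr1 they are not a plain measure of free RNA. In untreated WT they held 20.3 CPM of Gpr34 and 37.2 CPM of Cx3cr1. Conventional dendritic cells of that library held 0.864 and 13.8 CPM.

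**Figure D3:**
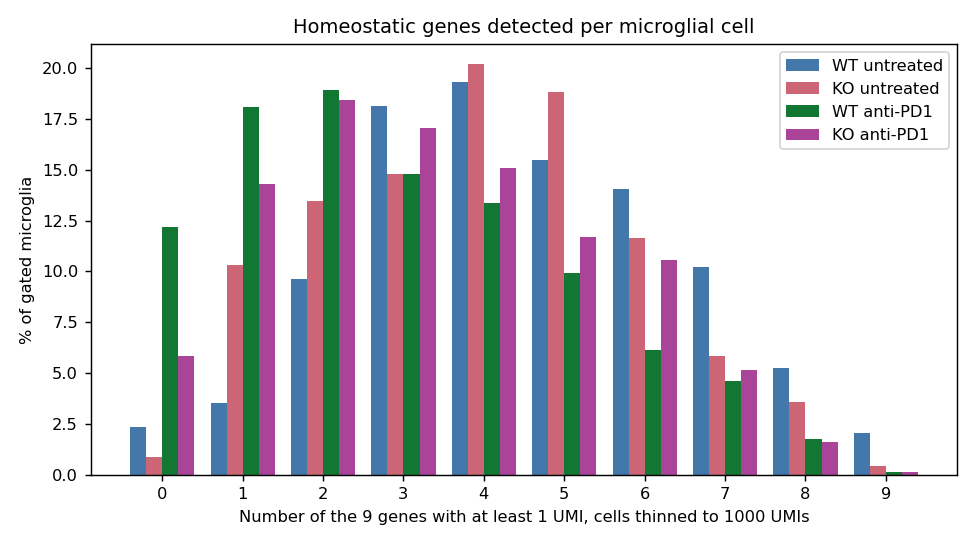
Percentage of gated microglia of each library (bars) by the number of the 9 genes with at least 1 UMI after each cell was thinned to 1000 UMIs. Anti-PD1 WT has the largest share of cells with 0 of the genes, 12.2%, and untreated WT the largest share with at least 5, 47.1%.

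Between the untreated genotypes, most of the set was modestly lower in KO microglia, and Fcrls was higher. The median log2 ratio KO/WT of the 9 genes was -0.26, against 0.01 for the 8230 genes measured. For 6 of the 9 the interval lay below 0 and for 1 above 0, as it did for 14.4% and 17.2% of all genes. 0 of the 9 were 2-fold lower or higher, against 2.58% and 1.82% of all genes. Olfml3 was 1.39-fold lower (log2 ratio -0.48, -0.58 to -0.38) and Tmem119 1.36-fold lower (-0.44, -0.54 to -0.35). Siglech (-0.30), Gpr34 (-0.28), Sparc (-0.26) and P2ry12 (-0.15) were lower by less. Sall1 (-0.17, -0.36 to 0.02) and Cx3cr1 (-0.01, -0.06 to 0.04) had intervals that held 0. Fcrls stood apart from the rest at 1.70-fold higher (0.76, 0.63 to 0.90).

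After anti-PD1 the 9 genes spread widely in the genotype comparison. Fcrls was 2.26-fold higher in KO (log2 ratio 1.18, 1.10 to 1.25), Cx3cr1 1.80-fold (0.85, 0.81 to 0.88), Gpr34 1.62-fold (0.70, 0.61 to 0.78), and Sall1 and Siglech 1.41-fold each (both 0.50). Sparc was at 0.19 and P2ry12 at 0.00. Tmem119 was 1.28-fold lower (-0.36, -0.42 to -0.29) and Olfml3 2.06-fold lower (-1.04, -1.11 to -0.98). The median was 0.50, but the median of the 10351 genes measured was itself 0.28, and TMM scaling (factors that centre most genes) moves every log2 ratio of this comparison by -0.17. Under TMM the members' median was 0.32, Sparc was at 0.02 and P2ry12 at -0.17. Of the 9, 6 had an interval above 0 and 2 below 0, against 48.3% and 22.2% of all genes. Counted by size, 1 was at least 2-fold higher and 1 at least 2-fold lower, against 10.2% and 4.72% of all genes.

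Fcrls and Olfml3 therefore differed between the genotypes in opposite directions, each the same way in both pairs. Under the 14 alternative settings Fcrls ranged from 0.30 to 1.00 in the untreated and from 0.99 to 1.95 in the anti-PD1 pair, and Olfml3 from -0.64 to -0.38 and from -1.22 to -0.59. Tmem119 was lower in KO in the untreated pair under every setting, from -0.58 to -0.33, but in the anti-PD1 pair it turned to 0.18 with clusters and to 0.19 with a gate on 12 anchor genes. The pairs differ in library handling and share no sample.

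In macrophages the same genotype comparison could be made for 7 of the 9 genes without treatment and for 8 after anti-PD1, those with at least 50 UMIs. Olfml3 was again lower in KO, at a log2 ratio of -0.71 (-0.93 to -0.49) and -1.25 (-1.36 to -1.15), and so was Tmem119, at -0.84 (-1.18 to -0.52) and -0.81 (-0.96 to -0.66). Both genes were lower in KO in both classes and both pairs, with the exceptions for Tmem119 just given. Fcrls was at 0.29 (-0.31 to 0.88) without treatment and at 2.42 (2.24 to 2.61) after anti-PD1, where it was read in 11.3% of KO and 3.57% of WT macrophages (2.92% and 0.506% after thinning, and 0.433% and 0.290% in T cells). Without treatment 2 of the 7 intervals lay above 0 and 3 below, against 34.8% and 25% of all genes, and after anti-PD1 6 of the 8 above and 2 below, against 43.2% and 30.8%. P2ry12 was at 0.59 and 0.39 and Cx3cr1 at -0.10 and 0.81. Gpr34 gave 1.56 and 1.63, at levels below those of T cells. By size, without treatment 1 of the 7, Gpr34, was at least 2-fold higher and 0 lower, against 4.74% and 4.51% of all genes. After anti-PD1 4 of the 8 were higher (Fcrls, Sall1, Sparc and Gpr34) and 1 lower (Olfml3), against 9.72% and 7.91%. Some of these macrophage levels were low (KO, then WT): Sall1 at 1.62 and 0.389 CPM on 36 and 22 UMIs, Sparc at 8.73 and 2.71 CPM. T cells, on at most 9 UMIs each, held 0.531 and 0 CPM of Sall1 and 4.78 and 1.63 CPM of Sparc. They held 4.78 and 1.09 CPM of Fcrls and 3.72 and 4.90 CPM of Olfml3. After anti-PD1 other genes moved with Fcrls in macrophages. The border-associated genes summed to 171 CPM in WT and 1058 CPM in KO macrophages. Lpl and Apoc1 stood at 96.8 and 111 CPM in KO against 5.66 and 9.19 CPM in WT macrophages. Without treatment the border-associated sum was also higher in KO, at 1505 against 259 CPM, while the interval of Fcrls held 0. The part of such cells in the result was not tested.

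**Figure D4:**
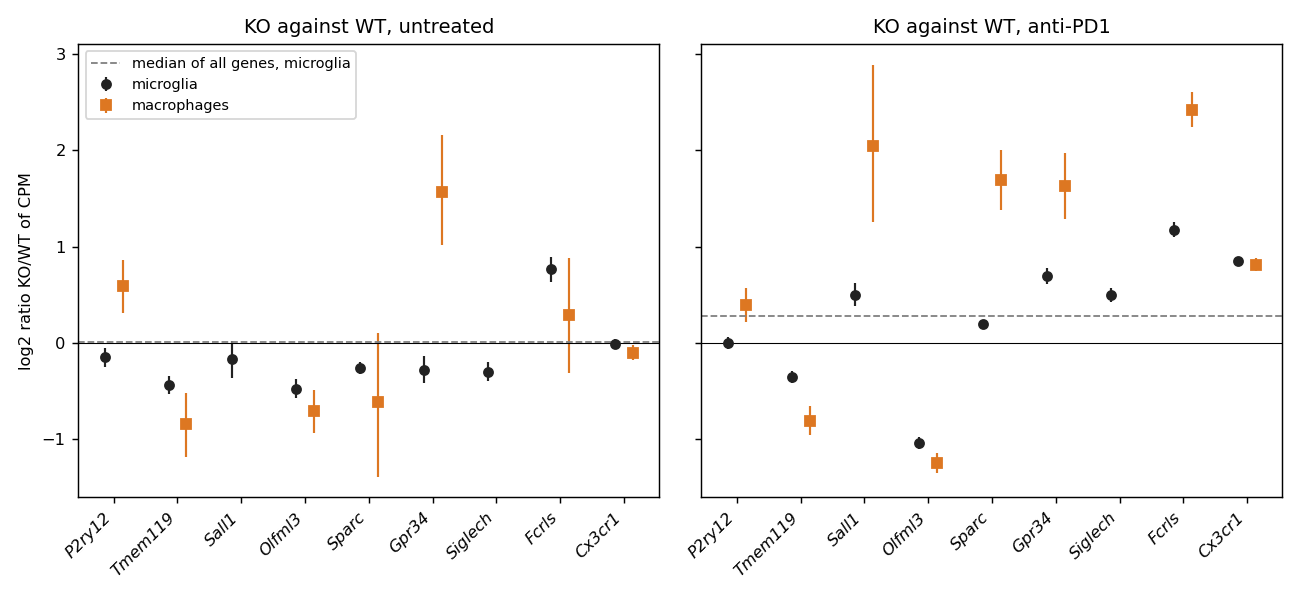
Log2 ratio KO/WT of CPM for each gene in microglia (black circles) and macrophages (orange squares) without treatment (left) and after anti-PD1 (right), with 95% counting intervals; genes under 50 UMIs in a comparison are left out, and the dashed line is the median of all genes in microglia. Olfml3 and Tmem119 lie below 0 in all 4 sets of points, and Fcrls in microglia lies above 0 in both panels.

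The anti-PD1 microglia carried less of the set than the untreated microglia in both genotypes. In WT the median log2 ratio anti-PD1/untreated was -1.09, with all 9 intervals below 0 (46.1% of all genes) and 5 genes at least 2-fold lower (21.3%). Cx3cr1 was lowest at -1.60 and Olfml3 nearest to 0 at -0.49. In KO the median was -0.64, with all 9 intervals below 0 (35.5%) and 2 genes, Olfml3 (-1.06) and Tmem119 (-1.02), at least 2-fold lower (10.3%). In neither genotype was a member higher, while 7.16% and 9.84% of all genes were by at least 2-fold. TMM moved these comparisons by 0.39 and 0.24, to medians of -0.69 and -0.40, with 2 and 0 genes at least 2-fold lower, and turned Gpr34 in KO from -0.13 to 0.11. The WT and KO comparisons rest on separate libraries. Treatment, day (20 against 25), the stated CD3 mixing and the counting software (Cell Ranger 3.1.0 against 7.2.0) changed together, so their effects cannot be told apart. The share of barcodes over the limit on mitochondrial UMIs, a sign of RNA quality, also differed, at 21.01% and 24.2% in the untreated against 0.693% and 3.30% in the anti-PD1 libraries, and its part was not tested. The heat shock genes Hspa1b and Hspa1a, which respond to tissue handling, differed too. Hspa1b stood at 2384 and 2558 CPM in untreated WT and KO microglia and at 118 and 338 CPM after anti-PD1. Hspa1a stood at 1862 and 1854 against 143 and 282 CPM. The list of 10 immediate early and heat shock genes did not move as 1. In WT 3 were at least 2-fold higher after anti-PD1 and 2 lower (7.16% and 21.3% of all genes). In KO 0 were higher and 4 lower (9.84% and 10.3%). The list medians were 0.18 in WT and -0.17 in KO. The part of these genes was not tested either.

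Other genes of microglia were counted from lists chosen with earlier results of these data known. Of 22 genes of CSF1R and TGF-beta signalling and of identity factors, 21 were measured. Without treatment 0 of them were 2-fold higher or lower in KO, and after anti-PD1 2 were higher and 0 lower. Of all genes, 1.82% were at least 2-fold higher and 2.58% lower in the untreated pair, and 10.2% and 4.72% in the anti-PD1 pair. All list counts are read against these shares, and by this count 2 of 21 is near the background. The median log2 ratio of the 21 genes was 0.02 untreated and 0.64 after anti-PD1, against 0.01 and 0.28 for all genes. Maf, a transcription factor of macrophages, stood at 0.31 and 1.53 (untreated, anti-PD1), and Gas6, a ligand of the receptor Mertk, at 0.88 and 0.88. At the other end were Irf8 (-0.25 and -0.60) and Spi1, which encodes PU.1 (-0.09 and -0.72). Of the 7 other purinergic genes, 0 and 0 were higher and 0 and 1 lower, with P2rx7 at 0.23 and 0.85 and P2ry14, a receptor for UDP-glucose, at -0.08 and -1.40. Of 10 immediate early and heat shock genes 1 and 1 were higher and 0 lower, with Hspa1b at 0.10 and 1.52.

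Of 20 disease-associated genes, 3 were at least 2-fold higher and 2 lower in KO microglia without treatment, and 1 and 1 after anti-PD1. Igf1, a growth factor, stood at 2.95 and 0.85 and Lpl, a lipoprotein lipase, at 0.98 and 1.69, while Cst7, a protease inhibitor, stood at -1.07 and -1.74 and Axl, a receptor tyrosine kinase, at -1.06 and -0.32. Between anti-PD1 and untreated microglia 10 of the 20 were at least 2-fold higher in WT and 8 in KO, and 0 were lower in either, against 7.16% and 9.84% of all genes higher and 21.3% and 10.3% lower.

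The homeostatic genes were lower in microglia that carried Lpl or Apoc1, which are on the disease-associated list. Microglia were divided by Lpl and by Apoc1, an apolipoprotein: 76, 70, 258 and 536 cells had at least 2 UMIs of these genes, and 228, 132, 479 and 709 had 0. The 40, 21, 109 and 179 cells between these limits were left out of the division. In the cells with Lpl or Apoc1 the median log2 ratio of the 9 genes was -0.75, -1.01, -1.54 and -1.41, against -0.09, -0.08, -0.19 and -0.16 for all genes. All 9 intervals lay below 0 in each of the 4 libraries, as they did for 15.3%, 18.7%, 31.8% and 31.1% of all genes. At least 2-fold lower were 2, 5, 6 and 7 of the 9, against 2.33%, 2.4%, 4.78% and 4.65%. Lpl and Apoc1 were not particular to microglia. In anti-PD1 KO, myeloid cells that met neither gate held 432 and 605 CPM of them, against 352 and 349 CPM in microglia. In the other libraries microglia held more of both, except Lpl in untreated KO (220 against 277 CPM). The part of admixed cells in the division was not tested.

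P2ry12 had the lowest ratio in 3 of the 4 libraries. It was at 347, 325, 164 and 169 CPM in microglia with Lpl or Apoc1 and at 979, 994, 704 and 784 CPM in those without. Siglech was at 467 CPM with and 842 CPM without these genes in untreated WT (log2 ratio -0.85), and at 71.3 and 447 CPM in anti-PD1 WT (-2.65). Olfml3 (-0.30 to -1.06) and Cx3cr1 (-0.49 to -0.92) differed by less.

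Microglia with Lpl or Apoc1 were also deeper, with a median of 10862, 13397, 17592.5 and 9214 UMIs against 6427.5, 6957.5, 8694 and 5049. In UMIs per cell, which do not divide by the cell's total, 5, 5, 8 and 8 of the 9 genes were lower, against 6.75%, 3.52%, 6.98% and 6.5% of all genes. P2ry12 was at 4.24 against 7.17 UMIs per cell in untreated WT and 1.74 against 4.34 in anti-PD1 KO, but Olfml3 was at 8.70 against 6.43 in untreated WT. With cells divided by any Lpl or Apoc1 UMI against none after thinning to 1000 UMIs, the medians after anti-PD1 were -1.34 (WT) and -0.94 (KO). The untreated libraries had 35 and 25 such cells, under the 50 set as the minimum. The anchor gene Crybb1 had lower CPM in the same cells, at log2 ratios of -0.57, -0.97, -1.32 and -1.57. Crybb1 is part of the gate, which asks for at least 3 anchor UMIs whatever the depth of the cell. Its ratios are therefore no separate check of the split, and the part of the gate in them was not tested.

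**Figure D5:**
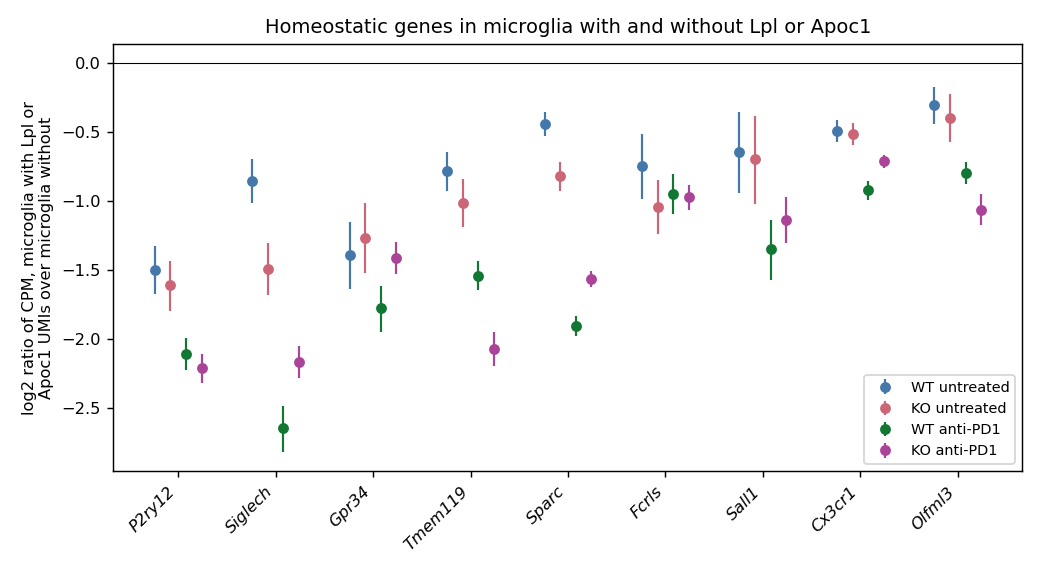
Log2 ratio of CPM in microglia with at least 2 Lpl or Apoc1 UMIs over microglia with 0, for each gene and library (colours), with 95% counting intervals; genes are ordered by their median. All 36 points lie below 0, from -0.30 for Olfml3 in untreated WT to -2.65 for Siglech in anti-PD1 WT.

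Cells with at least 2 Lpl or Apoc1 UMIs made up 22.1% (17.8 to 26.9%), 31.4% (25.4 to 37.9%), 30.5% (27.4 to 33.7%) and 37.6% (35.1 to 40.2%) of microglia. The shares after thinning count cells with any UMI of these genes, and were 10.2%, 11.2%, 15.3% and 22.9%. The intervals of the untreated genotypes overlapped before thinning and also after it (7.23 to 13.9% and 7.39 to 16.1%). Taken separately in cells without these genes, the median KO/WT ratio of the 9 genes was -0.04 untreated and 0.52 after anti-PD1, and in cells with them -0.09 and 0.75. Fcrls was higher in KO in both kinds of cell and both pairs (0.86 and 0.56 untreated, 1.24 and 1.22 after anti-PD1, without and with). Olfml3 was lower in all 4 (-0.44, -0.53, -0.89 and -1.16), as was Tmem119 (-0.28, -0.51, -0.11 and -0.64). Siglech without treatment was at 0.03 in cells without Lpl and Apoc1 and at -0.61 in cells with them.

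The genes whose level followed the mean of the 9 most closely over 23 points (cell classes and libraries with at least 50 cells, which share libraries and depth) were Slco2b1 (Pearson r = 0.98), Ctsf, Speg, Eya4, Ak1, Chst1, Neurl1a and Sgce, the last at 0.97, among 5530 genes. None of these 8 is an anchor of the gate. Slco2b1, an organic anion transporter, stood at 385, 395, 138 and 235 CPM in microglia and at 1.22 to 4.50 CPM in macrophages. Among the 9 themselves, the correlation of each with the mean of the other 8 was lowest for Siglech (0.58) and Gpr34 (0.80), and 0.87 to 0.96 for the rest.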

How the data were processed

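The deposited matrix of each library gives whole-number UMI counts for every gene in every barcode, not normalized by the authors, per the file headers and the values. The headers name Cell Ranger 3.1.0 (untreated) and 7.2.0 (anti-PD1), and the submitters' processing notes name mm10 and GRCm38. Settings for intronic reads and cell calling are not given in the sources used here. The labels name the same 10x Genomics 5' kit for all libraries. Their protocol calls the sorted cells lung cells once, while the tissue label is brain. Libraries held 6662, 3705, 9530 and 8764 barcodes with 48270410, 32410040, 94732545 and 54559749 UMIs (untreated WT and KO, anti-PD1 WT and KO). The untreated pair shared 3 barcodes, the anti-PD1 pair 95, and libraries across the pairs 0 to 2.

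Barcodes needed 200 detected genes and no more than 10% of UMIs from mitochondrial genes. Scrublet left to itself called 0 to 2 doublets in a library. The highest scores, 0.8% per 1000 barcodes, were therefore dropped (222, 63, 717 and 575), leaving 5040, 2746, 8747 and 7900 cells. Microglia had at least 3 anchor UMIs, at most 2 monocyte-derived UMIs per anchor UMI, at least 5 UMIs of 8 macrophage lineage genes and at most 4 T cell UMIs. Macrophages had at most 1 anchor UMI and at least 5 monocyte-derived UMIs. Of 12 anchors set at first, 2 were dropped after the files were seen, and their levels are not reported here.

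UMIs were summed per class and library. Log2 ratios were formed after adding 0.5 UMI, for genes that reached 50 UMIs over both sums, with conditional binomial intervals. Levels have exact Poisson and shares exact Clopper-Pearson intervals, all for counting error only. On simulated counts the ratio intervals held the true value for 95.5% of 6571 genes (untreated) and 95.1% of 9060 (anti-PD1). The simulated sums were Poisson counts, the model that the intervals assume, so this checks the calculation only. It does not cover spread between cells or between libraries. Genes named outside the 9 were the 2 highest and 2 lowest of each list by the mean KO/WT ratio, and the 8 most like the set. Of these, the text gives 1 or more of each list it counts. Ifnar1, Crybb1, Apoc1, Ly6c2 and C1qa, and the divisions by Lpl and Apoc1 and by Ly6c2 and C1qa, were added after the files were seen. The members and all lists were chosen with earlier results of these data known. Alternatives were 14 settings of gate, filter, scaling and depth. Tools were Python 3.11.15, scanpy 1.11.5, R 4.3.3, edgeR 4.0.16 (TMM) and DESeq2 1.42.0 (size factors).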

Additional observations from a re-analysis of the deposited data

Results flagged for a closer look

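Sparc, Gpr34 and Siglech stood on opposite sides of 0 in the genotype comparison of microglia, lower in KO without treatment and higher in KO after anti-PD1, with counting intervals that did not hold 0. The log2 ratios KO/WT were -0.26 and 0.19 for Sparc, -0.28 and 0.70 for Gpr34, and -0.30 and 0.50 for Siglech. Whether the pairs differ was not tested, since each ratio compares 1 library with 1 other. All genes moved in the same sense, with medians of 0.01 and 0.28, and Sparc after anti-PD1 lay below the second.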

How the results depend on the processing

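No paired analysis was possible because each group has 1 library. The median of the 9 genes kept its sign in all 8 comparisons under all 14 alternatives. Of these, 1 could change no median: it lowered the limit to 10 UMIs, and all 9 genes already reached 50 UMIs in each of the 8 comparisons. Gating on the other 8 members uses genes of the same set, so it is no separate check of the microglia/macrophages values. KO/WT untreated (-0.26) was -0.18 with no cell filter, -0.19 with cells of equal weight and -0.13 (-0.125) with cells of at least 5000 UMIs. KO/WT anti-PD1 (0.50) was 0.93 with clusters, 0.32 with TMM, 0.32 (0.316) with DESeq2 size factors, 0.41 with cells of equal weight, 0.60 with cells thinned to 1000 UMIs, 1.28 with 12 anchor genes and 0.17 with cells of at least 5000 UMIs. Anti-PD1/untreated in WT (-1.09) was -0.89 with the stricter anchor gate, -0.69 with TMM, -0.68 with DESeq2, -0.75 thinned and -2.27 with 12 anchor genes. Anti-PD1/untreated in KO (-0.64) was -0.42 with the stricter gate, -0.14 with clusters, -0.87 with the stricter cell filter, -0.40 with TMM, -0.41 with DESeq2, -0.42 thinned, -0.996 with 12 anchor genes and -0.84 with cells of at least 5000 UMIs.

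Microglia/macrophages in untreated WT (6.32) was 7.02 when the other 8 members gated the cells, 5.69 with clusters, 6.80 with the stricter filter, 6.95 with equal weight, 6.80 thinned and 6.84 with 12 anchor genes. In untreated KO (5.98) it was 6.77 gated on the other members, 6.35 with the stricter gate, 5.47 with clusters, 6.61 with the stricter filter, 6.30 with equal weight, 7.04 with the T cell level subtracted and 6.53 with 12 anchor genes. In anti-PD1 WT (4.90) it was 6.44 gated on the other members, 5.40 with the stricter gate, 4.602 with clusters, 4.75 with DESeq2, 5.37 with equal weight, 5.51 thinned, 5.01 with the T cell level subtracted and 4.05 with 12 anchor genes. In anti-PD1 KO (4.50) it was 5.01 with the stricter gate, 4.76 with clusters, 4.35 with TMM, 4.28 with DESeq2, 4.86 with equal weight, 5.16 thinned, 4.72 with the T cell level subtracted, 4.22 with 12 anchor genes and 4.30 with cells of at least 5000 UMIs.

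Of the single-gene values whose interval did not hold 0, 12 changed sign. P2ry12 KO/WT untreated became 0.092 in cells of at least 5000 UMIs. Tmem119 KO/WT anti-PD1 became 0.18 with clusters and 0.19 with 12 anchor genes. Gpr34 anti-PD1/untreated in KO became 0.11 with the stricter gate, 0.30 with clusters, 0.11 with TMM, 0.10 with DESeq2 and 0.33 thinned. In macrophages Cx3cr1 KO/WT untreated became 0.042 with clusters and 0.17 in cells of at least 5000 UMIs, and with 12 anchor genes Sall1 and Gpr34 KO/WT anti-PD1 became -0.93 and -0.0088. Another 16 values, of 4 comparisons whose interval held 0, also changed sign: P2ry12 KO/WT anti-PD1 went down to -0.27 and Cx3cr1 KO/WT untreated up to 0.10, and in untreated macrophages Fcrls KO/WT went down to -0.61 and Sparc up to 1.80. The gate on 12 anchor genes took 3371 microglia in anti-PD1 WT in place of 846. It and the depth limit of 5000 UMIs were chosen after seeing the data. The cause of these changes was not tested. Depth limits the macrophage values of Sall1 and Siglech, which rest on 6 to 36 UMIs per library.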
